A study of Homo sapiens with 42 samples.

Results

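The HOX cluster genes comprised 38 homeobox genes in 4 clusters, chosen as a gene family by name and not by any measured value, of 20007 protein-coding genes whose promoters were scored. HOXA held 10 of them on chromosome 7, HOXB held 10 on chromosome 17, HOXC held 9 on chromosome 12 and HOXD held 9 on chromosome 2. The spans from the first to the last listed base were chr7:27100354-27200091 (99.7 kb), chr17:48528526-48728750 (200.2 kb), chr12:53938831-54056030 (117.2 kb) and chr2:176092721-176190907 (98.2 kb), all on hg38. By number along the clusters, 7 genes were anterior (paralogues 1 to 3), 15 were central (4 to 8) and 16 were posterior (9 to 13).

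HOX genes encode homeodomain transcription factors that give cells their position along the body axis, and genes of a cluster are switched on in the order in which they lie. In cells that do not use them, the clusters are textbook targets of Polycomb complexes, whose PRC1 arm adds ubiquitin to histone H2A (H2AK119ub) and whose PRC2 arm, with its subunit SUZ12, methylates H3K27. H3K27ac marks active promoters and enhancers, H3K4me1 marks enhancers and promoter flanks, H3K36me3 follows transcription through gene bodies and H3K9me3 marks heterochromatin.

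Chromatin immunoprecipitation followed by sequencing (ChIP-seq) was available for 38 libraries, with 4 inputs. Parental, untreated NCI-H661 (H661), a large cell lung carcinoma line that expresses DPPA2 and DPPA4, regulators otherwise found in early embryos, gave 18 libraries: 2 replicates for each of DPPA2, DPPA4 and 6 histone marks (acetylated H3K27, ubiquitinated H2AK119, and methylated H3K4me1, H3K36me2, H3K36me3 and H3K9me3), and 1 each for SUZ12 and for KDM2A, a protein that binds unmethylated CpG sites. NCI-H1299 (H1299), labelled as a lung adenocarcinoma line and not expressing DPPA2 or DPPA4 itself, was a stable, cell-sorted line with FLAG-tagged DPPA2 and V5-tagged DPPA4 cDNAs behind a tet-response element. It gave 20 libraries, 2 for each of the 5 histone marks measured in both lines, after 7 days with water (CTRL) or with 2 µg/mL doxycycline (DOX), so CTRL cells carried the same cDNAs uninduced. Each group was 1 cell line, and the methods speak of independent replicates made in complete batches without saying whether these were separate cultures, so p-values measure the spread between these libraries, which may be technical.

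The measurements were EPIC2 islands (broad enriched stretches called by the authors in each library) and MACS2 narrow peaks. A promoter window of 3001 bp was centred on the start of the canonical transcript (the transcription start site, TSS), with flanks of 1500 bp, and a mark was called there when an island of both replicates touched it. The 38 promoter windows did not overlap each other. Reads in islands ranged from 0.488 to 6.96 M (megareads) in each H661 library and from 0.138 to 3.66 M in each H1299 library. The H3K27ac library of DOX replicate 1 stood apart, with 2.78 M reads in islands against 0.979 M in replicate 2. At the promoters of DPPA2 and DPPA4, H3K27ac was called in H661 and not in either H1299 condition, where the cDNAs are expressed from elsewhere, so these promoters do not show whether induction worked. Of the other marker promoters, EPCAM, KRT8 and NKX2-1, of epithelial and lung identity, were called for H3K27ac in H661 only, and VIM, ZEB1 and KRT18 were called in every group.

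Promoter sequence was taken from RefSeq (GRCh38.p14), which held 18 of the 38 genes at the same TSS, as windows of 300 bases. These 18 promoters held a median of 24.5 CpG sites, from 4 at HOXD4 to 44 at HOXA13, against a median of 14 over 35116 promoters, of which 96.0% held at least 1 CG. They are shown for 4 genes that the results below return to, with each CG in capitals: HOXA10, where the DPPA2 and DPPA4 peaks were strongest, HOXD8 and HOXA7, whose calls differed between CTRL and DOX, and HOXD4, which had the fewest CpG sites.
HOXA10, chr7:27174271-27174570, minus strand: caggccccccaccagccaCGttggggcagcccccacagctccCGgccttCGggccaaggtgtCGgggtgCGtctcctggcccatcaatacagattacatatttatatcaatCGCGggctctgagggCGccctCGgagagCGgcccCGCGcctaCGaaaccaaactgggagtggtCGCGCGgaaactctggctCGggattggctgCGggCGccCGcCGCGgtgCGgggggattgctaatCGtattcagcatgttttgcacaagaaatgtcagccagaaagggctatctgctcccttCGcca
HOXD8, chr2:176129455-176129754, plus strand: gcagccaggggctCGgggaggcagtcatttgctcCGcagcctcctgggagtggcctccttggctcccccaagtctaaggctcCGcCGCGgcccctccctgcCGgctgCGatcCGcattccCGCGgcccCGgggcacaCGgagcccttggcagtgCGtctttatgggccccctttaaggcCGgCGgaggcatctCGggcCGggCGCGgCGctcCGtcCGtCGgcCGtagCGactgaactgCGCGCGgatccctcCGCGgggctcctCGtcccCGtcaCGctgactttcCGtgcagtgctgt
HOXA7, chr7:27156626-27156925, minus strand: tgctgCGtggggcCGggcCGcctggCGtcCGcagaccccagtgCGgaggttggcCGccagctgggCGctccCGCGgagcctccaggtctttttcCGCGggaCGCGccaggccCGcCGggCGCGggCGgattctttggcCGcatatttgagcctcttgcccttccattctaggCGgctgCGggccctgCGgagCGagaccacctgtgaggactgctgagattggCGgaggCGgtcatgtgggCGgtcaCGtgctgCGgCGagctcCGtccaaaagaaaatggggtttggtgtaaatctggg
HOXD4, chr2:176151300-176151599, plus strand: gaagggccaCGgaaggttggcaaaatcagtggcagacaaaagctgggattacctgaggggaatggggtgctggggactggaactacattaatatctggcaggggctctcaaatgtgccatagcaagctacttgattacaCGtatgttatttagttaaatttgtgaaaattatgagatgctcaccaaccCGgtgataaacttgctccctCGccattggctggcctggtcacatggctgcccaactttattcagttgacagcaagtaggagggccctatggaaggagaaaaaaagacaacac
The windows held 25, 34, 31 and 4 CG in this order, so the first 3 lay above the median of all promoters and HOXD4 lay below it. CG is its own reverse complement, so both strands give the same count. HOXD4 was also the member with no H3K27ac island in any of the 6 H3K27ac libraries and no SUZ12 narrow peak. HOXD3 and HOXD12 likewise had no H3K27ac island in any library, but each had a SUZ12 peak.

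A first comparison asked which HOX promoters DPPA2 and DPPA4 bound in H661. A DPPA2/4 consensus peak, one shared by all 4 DPPA2 and DPPA4 narrow peak lists, lay at 19 of the 38 promoters (50.0%), against 26.3% of all protein-coding promoters. HOXC had 7 of 9 (HOXC5, HOXC6, HOXC8, HOXC9, HOXC10, HOXC12 and HOXC13), HOXA 6 of 10 (HOXA4, HOXA5, HOXA9, HOXA10, HOXA11 and HOXA13), HOXB 5 of 10 (HOXB2, HOXB4, HOXB7, HOXB8 and HOXB9) and HOXD 1 of 9 (HOXD11). By position, 10 of 16 posterior, 8 of 15 central and 1 of 7 anterior genes held one, the last being HOXB2, which patterns the hindbrain. The count rests on the overlap demanded of paired peaks: demanding more than 50% of each peak in place of 25% left 4, and raising the log2 fold limit to 2 left 12. Shares of all promoters at these settings are not given, so whether the excess over all promoters holds there was not tested. Most other members had narrow peaks in some lists, since 36, 29, 32 and 31 of the 38 promoters held one in DPPA2 R1, DPPA2 R3, DPPA4n R2 and DPPA4n R3, where 62.1%, 43.3%, 43.6% and 42.9% of all promoters did. Only HOXB1 and HOXB3 had none in any of the 4 lists.

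HOXA10, which acts in the reproductive tract and in blood cells, had the highest fold of all members in each of the 4 lists. Its highest peak was 44.3 times input in DPPA2 R1, 17.1 times in DPPA2 R3, 12.2 times in DPPA4n R2 and 13.4 times in DPPA4n R3. That ranked it at a mean of the 99.2nd percentile of the peaks of each list. The consensus peak, chr7:27171719-27175167, was 3449 bp wide and spanned the TSS at 27174320 and most of the transcript of 2 exons that runs from there to 27170605. The DPPA2 R1 list held 69810 peaks and had higher folds than the others (26349 to 30497 peaks), so folds are compared within a list. Each fold is that of the highest peak touching the window, and its summit may lie outside the window.

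Next came HOXC13, a regulator of hair and nail keratins, with folds of 13.3, 6.5, 7.5 and 9.6 in the same order of lists and a mean percentile of 90.2. HOXD11, needed for the forearm and kidney with its paralogue HOXA11, had 13.5, 6.9, 7.2 and 6.5. HOXA4, a central gene, had 12.6, 9.2, 6.3 and 6.4. These 3 genes had a peak in every list, and their mean percentiles lay between 87.4 and 90.2.

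HOXA9, a haematopoietic gene known from leukaemia, had folds of 23.7, 7.8, 5.5 and 10.2, in the order DPPA2 R1, DPPA2 R3, DPPA4n R2 and DPPA4n R3. HOXA11 had 16.9, 6.9, 6.3 and 6.3. HOXA13, needed for digits and the hindgut, had 12, 5.7, 6.8 and 6.3. All 3 lay between the 82.6th and 86.8th mean percentile, below HOXA10 in every list.

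In HOXC, HOXC12 had folds of 23.7, 8.0, 5.2 and 6.5 in that order, and HOXC8, a gene of the thoracic region, had 10.9, 7.1, 5.6 and 6.3. HOXC5 and HOXC6 shared a consensus peak, chr12:54029429-54032440, that touched both windows. HOXC5 had 11.7, 6.0, 4.9 and 6.4, and HOXC6 had 11.7, 5.6, 6.0 and 4.8. HOXA5, which is required for lung development, had 24.6 in DPPA2 R1 and between 5.5 and 5.6 in the other 3 lists. In DPPA2 R1 the summits for HOXA5 (-2112 bp from the TSS), HOXC8 (-2337 bp) and HOXC6 (3311 bp) lay outside the window. The remaining 7 consensus genes had mean percentiles from 43.2 (HOXB2) to 72.4 (HOXC10). HOXD9 had no consensus peak although its folds were 18.0, 5.6, 7.2 and 6.6, at a mean percentile of 84.8, with a peak in all 4 lists.

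**Figure D1:**
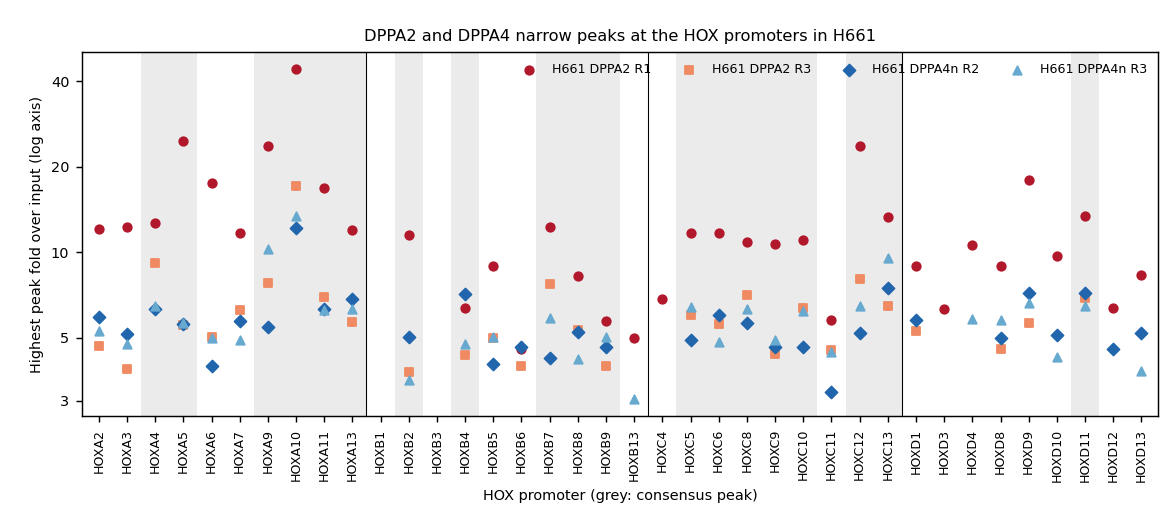
Highest fold over input (log axis) of narrow peaks touching the 38 HOX promoter windows in the 2 DPPA2 and 2 DPPA4 libraries of H661. Summits may lie outside the window. There is no point where a list had no peak, and grey bands mark the 19 promoters with a consensus peak. HOXA10 stands highest in every list, and HOXB1 and HOXB3 have no point.

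SUZ12, the PRC2 subunit, had narrow peaks at 18 of the 38 promoters in its single library, against 15.6% of all promoters, and their spread over the clusters was uneven. They lay at 8 of 9 HOXD, 6 of 10 HOXA, 4 of 10 HOXB and 0 of 9 HOXC promoters. The highest folds were 26.9 at HOXD1, 19.3 at HOXD9, 16.8 at HOXA13, 16.5 at HOXD13 and 14.1 at HOXA2. By length, SUZ12 islands covered 67.6% of HOXD, 57.2% of HOXA, 18.2% of HOXB and 2.6% of HOXC, where they covered 3.77% of the genome. The DPPA2/4 consensus ran the other way between HOXC and HOXD, with 7 and 1 genes. HOXD did not lack DPPA signal, since DPPA2 R1, DPPA2 R3, DPPA4n R2 and DPPA4n R3 had narrow peaks at 9, 4, 7 and 6 HOXD promoters. HOXC had 9, 8, 8 and 8. Islands of each of these libraries touched all 9 HOXD promoters and covered 36.2% to 55.5% of HOXD, against 76.5% to 90.3% of HOXC. The SUZ12 values come from 1 library and have no replicate check. KDM2A narrow peaks lay at 6 promoters (HOXA4, HOXA5, HOXA10, HOXA11, HOXD8 and HOXD11), against 10.5% of all promoters. Their folds ran from 4.6 to 6.9 in the single KDM2A library, and 5 of these 6 promoters carried a consensus peak. The share of all promoters with both peaks is not given. Whether these peaks met more often than their separate shares imply was therefore not tested.

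H2AK119ub was called in H661 at 31 of the 38 promoters (81.6%), against 24.3% of all promoters. All 10 HOXA promoters, 8 of 9 in HOXC, 8 of 9 in HOXD and 5 of 10 in HOXB carried it, and the exceptions were HOXB1, HOXB2, HOXB6, HOXB7, HOXB13, HOXC4 and HOXD4. HOXD13, whose mutation gives fused digits, was covered over all 3001 bp of its window in both libraries. HOXB6 stood at the other end, with 0 bp in both libraries, and HOXB2 had 192 and 0 bp. By length, H2AK119ub islands covered 50.6% and 66.3% of HOXA and 43.8% and 57.3% of HOXD, against 22.9% and 27.2% of HOXB and 21.9% and 33.7% of HOXC, in R1 and R2. Genome coverage in these libraries was 1.65% and 4.74%, so R2 was the broader library in every cluster, and the order of HOXA and HOXD above HOXB and HOXC was the same in both.

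H3K27ac in H661 was called at 23 of the 38 promoters (60.5%), close to the 58.1% of all promoters, and the members differed mainly by cluster. HOXC had 8 of 9, HOXB 8 of 10, HOXA 4 of 10 and HOXD 3 of 9, and 12 of 15 central, 10 of 16 posterior and 1 of 7 anterior genes were called. Replicate 1 alone gave 23, against 59% of all promoters, and replicate 2 alone 33, against 68.1%, the extra 10 lying mostly in HOXA and HOXD. H3K27ac islands covered 62.5% and 71.0% of HOXC, 21.1% and 27.8% of HOXB, 10.2% and 30.2% of HOXA and 4.6% and 12% of HOXD, in R1 and R2. HOXC thus held the most acetylated length in each library, where the genome was covered over 2.24% and 3.56%.

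Much of this lay in a single island of HOXC. It ran over 22100 bp in R1, chr12:54006001-54028100, with 1364 ChIP reads and 148 input reads, and over 26500 bp in R2, chr12:54006101-54032600, with 3288 ChIP and 181 input reads. Both lay at the 99.98th percentile of island width in their library. Both islands contained the TSS of HOXC8, at 54008985, and the longer R2 island also contained that of HOXC6, at 54028440. Both are genes of the trunk region. The widest islands of DPPA2 R3 (45400 bp), DPPA4n R2 (65000 bp) and DPPA4n R3 (68500 bp) in HOXC lay over the same stretch and contained the TSSs of HOXC5, HOXC6, HOXC8 and HOXC9. The widest DPPA2 R1 island in HOXC (10000 bp, chr12:53991401-54001400) ended before it.

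**Figure D2:**
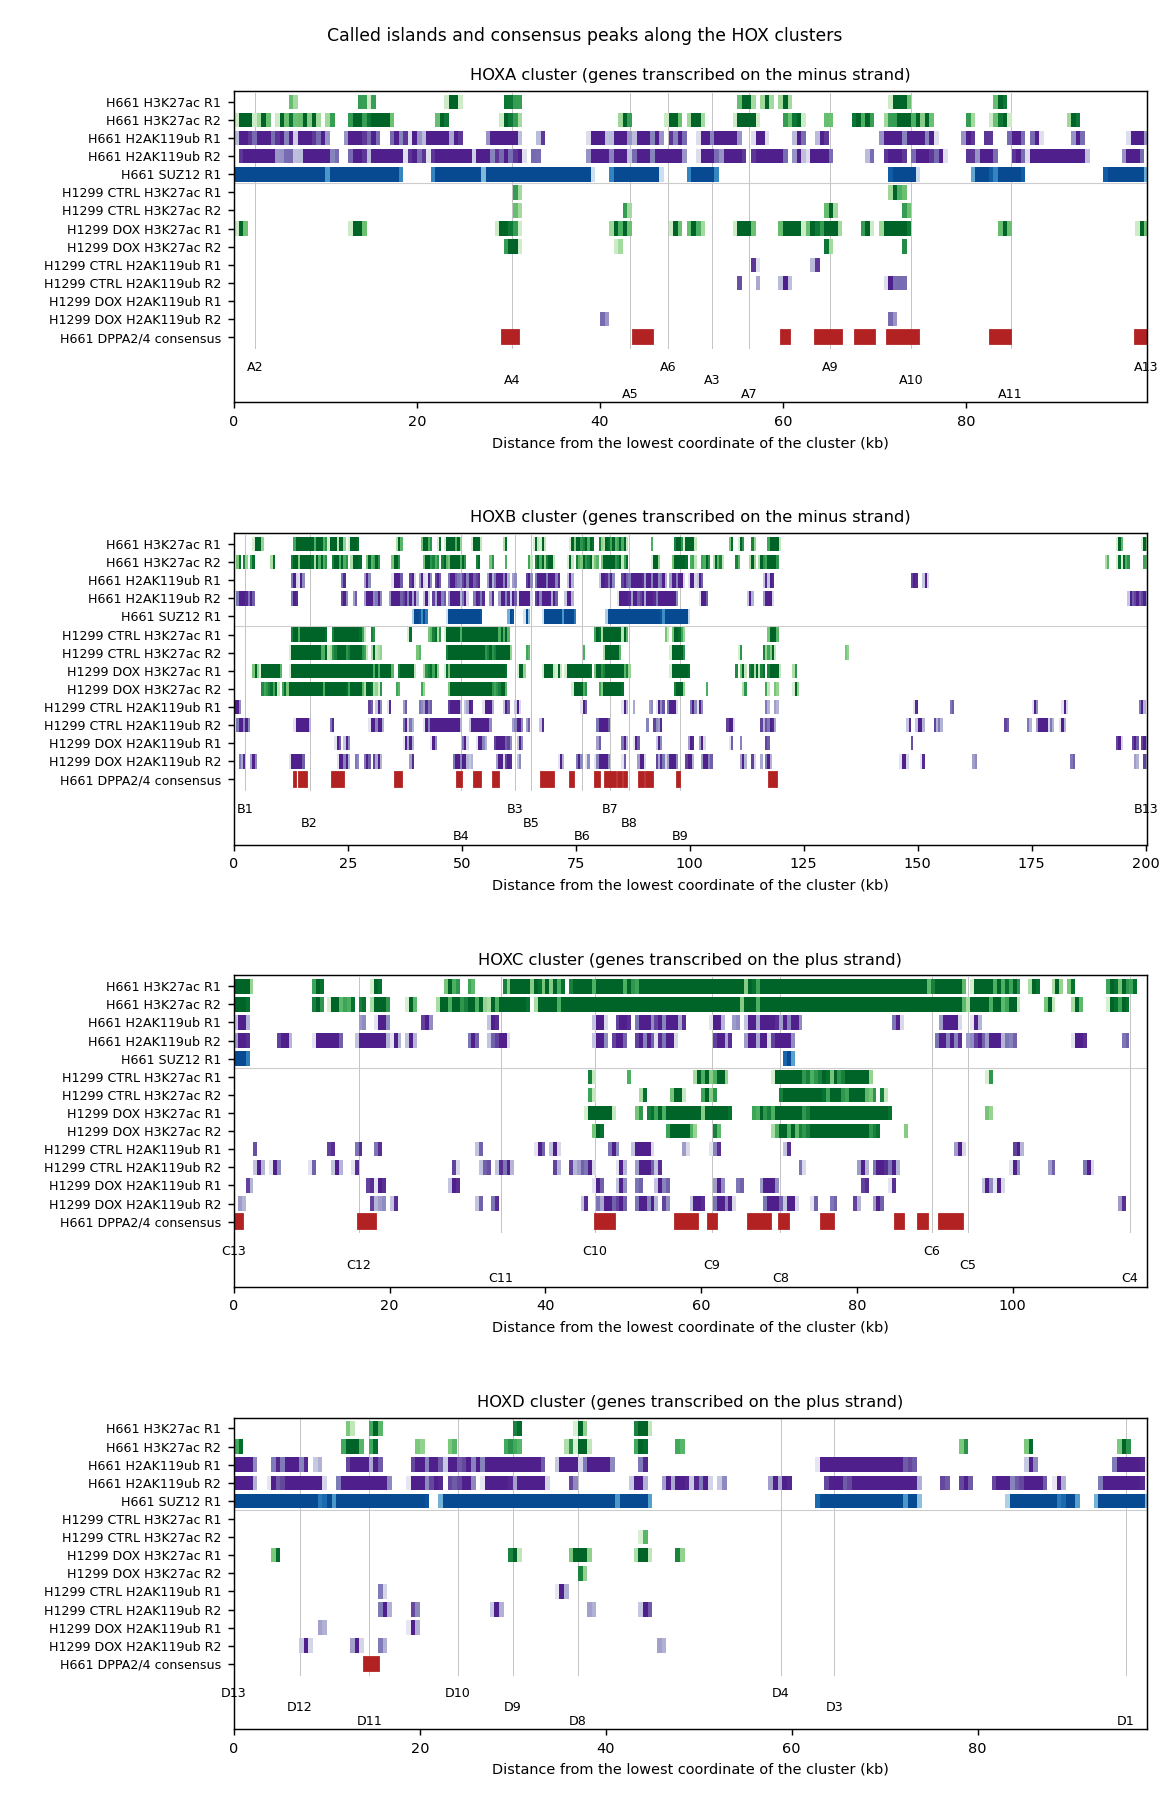
Islands along the 4 HOX clusters in bins of 500 bp (darker, more of the bin covered) for H3K27ac (green), H2AK119ub (purple) and SUZ12 (blue), with DPPA2/4 consensus peaks of H661 (red), against distance from the lowest coordinate of each cluster in kb; thin lines mark the TSSs. H661 H3K27ac fills most of HOXC, SUZ12 covers 57.2% of HOXA and 67.6% of HOXD, H661 H2AK119ub covers 43.8% to 66.3% of these 2 clusters, and H1299 H3K27ac lies mainly in parts of HOXB and HOXC.

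H3K27ac and H2AK119ub were both called at 18 promoters in H661 (47.4%), against 12.7% of all promoters. These were 7 in HOXC, 4 each in HOXA and HOXB and 3 in HOXD, and none was anterior. SUZ12 peaks and H3K27ac met at 9 promoters (HOXA4, HOXA11, HOXB4, HOXB7, HOXB8, HOXB9, HOXD8, HOXD9 and HOXD11), against 3.55% of all promoters. These are overlaps of calls made on whole cell populations, and the marks need not lie on the same molecules. The separate shares were 60.5% against 58.1% of all promoters for H3K27ac, 81.6% against 24.3% for H2AK119ub and 47.4% against 15.6% for SUZ12. Whether the calls met more often than these separate shares imply was not tested.

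The other marks in H661 were fewer, apart from H3K4me1. H3K4me1 was called at 27 promoters, against 29.6% of all, and covered 49.9% and 47.7% of HOXC, above the 27.5% and 31.7% of HOXA, 27.8% and 23.6% of HOXB and 16.1% and 15.5% of HOXD. H3K36me3 was called at 5 promoters (HOXB5, HOXC4, HOXC5, HOXC6 and HOXD4), against 7.18% of all, all of them central genes. H3K36me2, a mark of intergenic and lightly transcribed chromatin, was called at HOXA6, HOXA11, HOXB1 and HOXC12, against 5.5%, but at 19 promoters in replicate 2 alone, against 20.3%. H3K9me3 was called at HOXA6 and HOXA9 only, against 4.14%, with 4 and 3 promoters in the single libraries.

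Over gene bodies, H3K36me3 reached 7 of the 38 genes in H661 (HOXA3, HOXA7, HOXB3, HOXB9, HOXC5, HOXC6 and HOXC9), against 46.2% of all genes. A gene body counted when islands of both libraries touched it anywhere, so longer genes were more easily reached. Gene body shares, here and for H1299 below, are not adjusted for gene length, so they do not show depletion at HOX genes. Coverage was greatest at HOXC6, with 82.3% and 33.6% of the gene body in R1 and R2, and at HOXC5, with 69.2% and 51.9%. HOXC9 had 38.9% and 7.5% and HOXB9 had 25% and 28.8%, while HOXA3, 45574 bp long, had 1.8% and 1.5%. HOXC5 and HOXC6 thus carried H3K36me3 over the gene body where H3K27ac also covered most of the promoter. The other 31 genes had no island in at least 1 of the 2 libraries. H3K36me2 reached 5 gene bodies in H661 (HOXA3, HOXB1, HOXC11, HOXC12 and HOXD3), against 18.8% of all genes. H3K9me3 reached 2 in H661 (HOXA3 and HOXA6), against 19.7%, and 0 in CTRL and DOX, against 8.23% and 7.88%.

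The second question was how the clusters differed between H661 and uninduced H1299. In CTRL cells H3K27ac was called at 10 promoters (HOXA4, HOXA10, HOXB2, HOXB3, HOXB4, HOXB7, HOXB9, HOXC8, HOXC9 and HOXC10), against 38.3% of all, and at none in HOXD. H2AK119ub was called at 8 (HOXA7, HOXB1, HOXB3, HOXB4, HOXB13, HOXC12, HOXD8 and HOXD11), against 8.81%, with 15 and 16 in the single libraries. H3K4me1 was called at 12, against 37.2%, H3K36me3 at HOXB2 and HOXB4, against 7.37%, and H3K9me3 at 0, against 0.19%. Leaving out either CTRL library gave 4 promoters with H3K36me3.

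At 11 promoters H3K27ac was called in both H661 libraries and neither CTRL library, against 12.1% of all promoters, and HOXB3 alone was called the other way round, against 0.77%. The 11 were 5 in HOXC, 3 in HOXD, 2 in HOXA and 1 in HOXB, and without H661 replicate 1 they numbered 19. HOXC6 was covered over 2701 and 3001 bp of its 3001 bp window in H661 R1 and R2, HOXC5 over 1801 and 2401 bp and HOXC11 over 926 and 2726 bp, all with 0 bp in both CTRL libraries. HOXB13, a gene of prostate and tail bud, had 2000 and 1700 bp, HOXC4 had 1900 and 1300 bp and HOXC13 had 1531 and 1531 bp, again against 0 bp. The 0 bp in CTRL follows from the rule that picked these promoters.

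The other 5 were less fully covered in H661. HOXA7 had 1400 and 2100 bp, HOXA11 1069 and 1000 bp, HOXD8 700 and 1600 bp, HOXD9 900 and 1300 bp and HOXD11 1100 and 1521 bp, each with 0 bp in both CTRL libraries. HOXB3, the call in the opposite direction, had 60 and 460 bp in CTRL and 0 bp in H661, and was no longer called in a narrower window with flanks of 500 bp. Its canonical TSS, at chr17:48590241, lies beside the HOXB5 gene.

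H2AK119ub was called in both H661 libraries and neither CTRL library at 13 promoters (34.2%), against 11.5% of all, and at 0 the other way round, against 1.98% (2 without H661 replicate 2 and 1 without CTRL replicate 2). They were 7 in HOXA (HOXA2, HOXA3, HOXA4, HOXA5, HOXA6, HOXA11 and HOXA13), 5 in HOXD (HOXD1, HOXD3, HOXD10, HOXD12 and HOXD13) and HOXC6. HOXD13 had 3001 bp covered in both H661 libraries, HOXA2, which patterns the ear and jaw, had 2801 and 3001 bp and HOXD1 had 2768 and 3001 bp. Next were HOXD3 with 3001 and 2307 bp, HOXD12 with 2206 and 3001 bp and HOXA3, a gene of thymus and parathyroid, with 2583 and 2383 bp. By the rule that picked them, each of the 13 had 0 bp in both CTRL libraries.

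HOXA6 followed with 1974 and 2974 bp, HOXA5 with 2401 and 2501 bp and HOXD10 with 2478 and 2278 bp in H661 R1 and R2. HOXA13 had 2601 and 2101 bp, HOXA4 2244 and 2244 bp and HOXA11 1700 and 1300 bp. HOXC6 was the least covered of the 13. The H2AK119ub libraries of CTRL were also the shallower ones, with 0.303 and 0.571 M reads in islands and 0.44% and 0.78% of the genome covered, against 1.32 and 6.65 M reads and 1.65% and 4.74% in H661, and the part of this in the difference was not tested. Within the same CTRL libraries H2AK119ub covered 12.6% and 20.7% of HOXB and 10.2% and 16.0% of HOXC, against 1.1% and 3.0% of HOXA and 1.1% and 4.0% of HOXD.

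H3K4me1 distinguished the lines at 11 promoters in favour of H661, against 7.27% of all, and at HOXC10 in favour of CTRL, against 10.4% (2 promoters with either H661 library left out). The 11 were HOXA2, HOXA6, HOXA11, HOXC4, HOXC5, HOXC6, HOXC12, HOXD1, HOXD3, HOXD10 and HOXD11. H3K36me3 was called in H661 alone at HOXB5, HOXC5 and HOXD4, against 2.92%, and in CTRL alone at HOXB2 and HOXB4, against 1.7%. H3K9me3 was called in H661 alone at HOXA6 and HOXA9, against 3.73% (4 promoters without H661 replicate 2), and in CTRL alone at 0, against 0.135%.

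**Figure D3:**
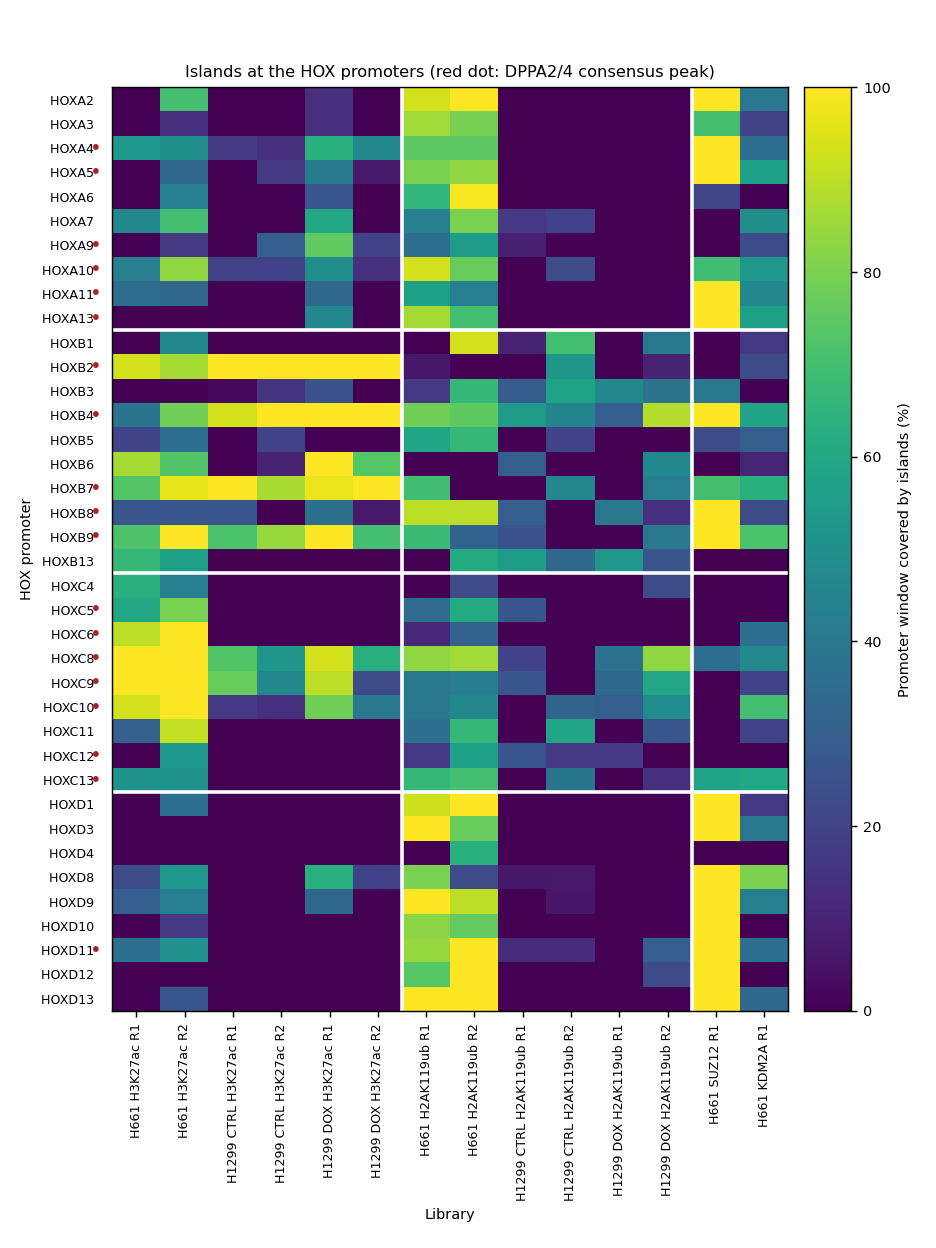
Share of each 3001 bp HOX promoter window covered by islands (colour, %) in the H3K27ac, H2AK119ub, SUZ12 and KDM2A libraries, with the 38 promoters in rows by cluster and a red dot for a DPPA2/4 consensus peak. HOXB2, HOXB4, HOXB7 and HOXB9 are acetylated in all 6 H3K27ac libraries, HOXC4 to HOXC6 and HOXC11 to HOXC13 only in H661, and H2AK119ub in HOXA and HOXD covers more of the windows in H661 than in H1299.

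Over cluster length, H3K27ac covered 66.8% ± 6.03 of HOXC in H661 and 13.2% ± 0.0603 in CTRL (SD, n = 2), a difference of 53.6 percentage points. In HOXA it covered 20.2% ± 14.1 and 2.06% ± 0.496, in HOXD 8.30% ± 5.26 and 0.153% ± 0.216, and in HOXB 24.4% ± 4.80 and 20.3% ± 0.742. HOXB was the cluster in which the lines lay closest. For H2AK119ub the differences were 56.4 points in HOXA, 48.0 in HOXD, 14.7 in HOXC and 8.41 in HOXB, and for H3K4me1 27, 14.1, 27.2 and 4.68 points in the same order. The H661 and CTRL libraries did not overlap in any of these except H3K4me1 in HOXB, but an exact two-sided permutation test of 2 against 2 libraries cannot go below p = 0.333, which is the value it gave for the others. In HOXB, H3K4me1 gave an exact p of 0.667. Genome coverage was also higher in H661, at 1.65% and 4.74% against 0.44% and 0.78% in CTRL for H2AK119ub. It was 2.24% and 3.56% against 0.79% and 0.74% for H3K27ac, and 3.23% and 2.44% against 1.36% and 1.88% for H3K4me1. The cluster differences are not scaled to it, and its part in them was not tested.

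**Figure D4:**
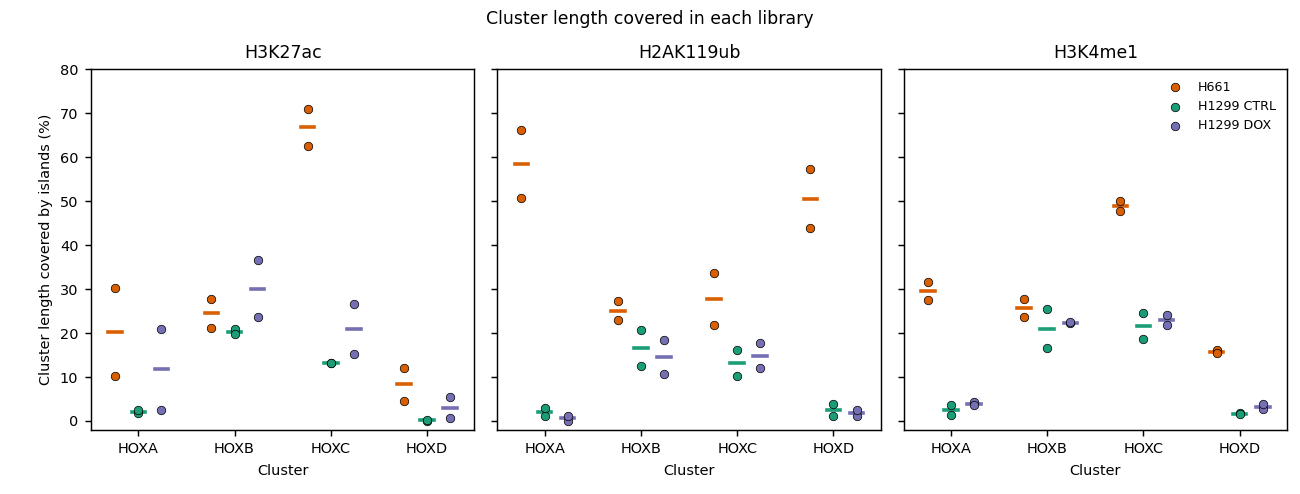
Percent of each cluster's length covered by islands in each library (points; bars, mean of 2 replicates) for H3K27ac, H2AK119ub and H3K4me1 in H661, H1299 CTRL and H1299 DOX. H661 lies far above H1299 for H3K27ac in HOXC (62.5% and 71.0%) and for H2AK119ub in HOXA and HOXD. Percentages are not scaled to the share of the genome covered in each library.

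Read counts could be compared only in regions that islands covered over at least 50% of the length in every library of a mark, which kept 4 HOX regions for H3K27ac, 2 each for H2AK119ub and H3K4me1, 1 for H3K36me3 and 0 for H3K9me3. edgeR's quasi-likelihood test called 2 of the 4 H3K27ac regions, both lower in H661, where it called 21.6% of 2899 regions genome-wide. The region chr17:48541001-48549100, which holds the HOXB2 promoter, had 402 and 386 reads in CTRL and 230 and 405 in H661. Scaled counts (CPM) were 1809 and 1800 against 872 and 631. CPM were scaled to each library's normalised total of reads in the tested regions, not to all its reads. They are therefore compared only within a comparison and mark. This region was lower in H661 by a log2 change of -1.28 (SE 0.20, adjusted p = 0.00041, edgeR with Benjamini-Hochberg adjustment). Its adjusted p was 0.0803 with no coverage minimum. The region chr17:48549501-48557100, inside the HOXB3 gene, had 1386 and 1105 against 501 and 450 CPM, a log2 change of -1.40 (SE 0.20, adjusted p = 0.000213). With no coverage minimum, 27 of 104 HOX regions were called for H3K27ac, 25 higher and 2 lower in H661, where 16.9% of 123834 regions were called. At that setting a region without an island counts as 0 reads, and the median log2 change was 5.74 over all regions and 6.03 over the HOX regions, so the split is not particular to HOX.

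The other 2 H3K27ac regions, at HOXB7 (log2 change -0.51, SE 0.20, adjusted p = 0.0785) and HOXA4 (-0.09, SE 0.38, adjusted p = 0.901), were not called by edgeR. None of the 5 regions of the other marks was called either (1 of H3K4me1 was called without H661 replicate 2), where edgeR called 4.85% of the regions of H2AK119ub, 13.6% of H3K4me1 and 11.2% of H3K36me3. None of them passed an unadjusted p of 0.05, and DESeq2 called 0 of them. The large HOXC domain of H661 had no counterpart of like length in CTRL, so its counts were not tested.

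The third comparison was of H1299 cells after 7 days with doxycycline or with water. Doxycycline itself and the proteins it induces cannot be told apart here, since no doxycycline-treated cells without the cDNAs were among these libraries. H3K27ac was called at 14 HOX promoters in DOX cells, against 51.3% of all promoters, where CTRL had 10 and 38.3%. The 14 were HOXA4, HOXA5, HOXA9, HOXA10, HOXB2, HOXB4, HOXB6, HOXB7, HOXB8, HOXB9, HOXC8, HOXC9, HOXC10 and HOXD8. A promoter called in both DOX and neither CTRL library was found in 1 case, HOXD8 (2.63%), against 5.03% of all promoters, and none was lost, against 0.08%. HOXD8 was covered over 1900 bp in DOX R1 and 600 bp in DOX R2 and over 0 bp in both CTRL libraries. DOX replicate 1, the deep library, had 22 promoters called on its own, all 10 of HOXA among them, and with it as the only DOX library 8 promoters counted as gained. Replicate 2 had 14, and with it alone 1 was gained and 1 lost. Leaving out CTRL replicate 1 gave 2 gained and 1 lost, and leaving out CTRL replicate 2 gave 4 gained.

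HOXB6 was the nearest to a gain outside that rule, with 3001 and 2215 bp in DOX and 0 and 300 bp in CTRL. HOXA9 had 2264 and 600 bp in DOX and 0 and 900 bp in CTRL, so the groups overlapped. HOXC8 and HOXC9, already acetylated in CTRL (2185 and 1585 bp, 2301 and 1400 bp), had 2801 and 1885 bp and 2701 and 700 bp in DOX, again with overlap. HOXA4 and HOXC10, also called in CTRL (500 and 400 bp each), had 1900 and 1400 bp and 2346 and 1200 bp in DOX, without overlap. At the other promoters called in CTRL (HOXA10, HOXB2, HOXB3, HOXB4, HOXB7 and HOXB9) the groups met or overlapped. The 5 HOXC promoters called in H661 and not in CTRL (HOXC4, HOXC5, HOXC6, HOXC11 and HOXC13) had 0 bp in both DOX libraries.

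By length, H3K27ac covered 20.8% and 2.6% of HOXA, 36.6% and 23.6% of HOXB, 26.7% and 15.3% of HOXC and 5.5% and 0.6% of HOXD in DOX R1 and R2. The CTRL values were 1.7% and 2.4%, 20.8% and 19.8%, 13.1% and 13.2%, and 0.0% and 0.3% in R1 and R2. Both DOX libraries lay above both CTRL libraries in each cluster (exact p = 0.333, the smallest possible), but DOX R2 lay much nearer to CTRL than DOX R1 did. Genome coverage was 2.06% and 0.96% in DOX and 0.79% and 0.74% in CTRL, so the total over the genome was also higher in DOX.

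H2AK119ub was called at 8 promoters in DOX cells (HOXB3, HOXB4, HOXB8, HOXB13, HOXC8, HOXC9, HOXC10 and HOXC12), against 11.6% of all, and again at 8 in CTRL. Replicate 2 of DOX had 18 on its own and replicate 1 had 8. Calls in both CTRL and neither DOX library were found at HOXA7 and HOXD8, against 2.09% of all promoters, and gains at 0, against 3.04%. HOXA7 had 500 and 600 bp in CTRL and HOXD8 196 and 205 bp, with 0 bp in both DOX libraries. HOXD8 was therefore the member with both changes of call, but not over the same bases. The H2AK119ub island of CTRL R1, chr2:176127701-176128400, touched only the upstream edge of the window. It ended before the H3K27ac islands of DOX R1, chr2:176129001-176130900, and DOX R2, chr2:176129801-176130400. The share of all promoters with both changes is not given. The H2AK119ub losses numbered 5 without CTRL replicate 1, 4 without CTRL replicate 2 and 4 without DOX replicate 2, and the gains 3 without CTRL replicate 1, 1 without CTRL replicate 2 and 2 without DOX replicate 1. By length the groups overlapped in all 4 clusters, at 0.0% and 1.2% of HOXA, 10.8% and 18.4% of HOXB, 11.9% and 17.8% of HOXC and 1.1% and 2.4% of HOXD in DOX R1 and R2.

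H3K4me1 was called at 12 promoters in each condition, against 43.9% of all in DOX, with 0 gained, against 3.23%, and 0 lost, against 1.12%. Without DOX replicate 1, 19 were called and 4 gained. Leaving out DOX replicate 2 gave 2 gained, leaving out CTRL replicate 2 gave 2 gained, leaving out CTRL replicate 1 gave 4 lost, and each of the other omissions gave 1 lost. The H3K36me3 calls in DOX were HOXB2 and HOXC6, against 9.53% of all, and HOXB4 was the single loss (450 and 51 bp in CTRL, 0 bp in DOX), against 0.73%. No H3K36me3 gain was found, against 1.95%. Either DOX library alone gave 4 calls and 1 gain, leaving out CTRL replicate 2 gave 1 gain and leaving out CTRL replicate 1 gave 2 losses. H3K36me3 covered 8.1% and 9.7% of HOXB in CTRL and 13.8% and 13.1% in DOX, 8.89% ± 1.13 against 13.4% ± 0.494 (SD, n = 2, exact p = 0.333), while genome coverage was 3.19% and 3.31% against 4.17% and 4.09%. With islands above a log2 fold of 2 the difference of 4.54 points became -0.449. H3K9me3 was called at no HOX promoter in DOX, against 0.165%, and neither gained, against 0.035%, nor lost, against 0.095%.

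Over gene bodies, H3K36me3 reached 3 HOX genes in CTRL (HOXB3, HOXB6 and HOXC4), against 44% of all genes, and 7 in DOX (HOXB2, HOXB3, HOXB5, HOXB6, HOXB7, HOXB9 and HOXC6), against 46.9%. HOXB3 was covered over 28.5% and 28.4% of its body in CTRL and 41.6% and 39.0% in DOX. HOXB2 had 0.0% and 42.6% in CTRL and 67% and 58.9% in DOX, HOXB5 0.0% in both CTRL and 25.5% and 31.7% in DOX, and HOXC6 0.0% in both CTRL and 30.3% and 37.8% in DOX. In these 4 genes the DOX libraries lay above the CTRL libraries. HOXB9 had 0.0% and 42.3% against 13.5% and 26.9%, so its groups overlapped, and HOXB4 had 0.0% and 49.0% in CTRL and 0.0% in both DOX libraries.

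In read counts, with the replicate number as a block, 4 HOX regions could be tested for H3K27ac and 12 for H3K4me1, and edgeR called 0 of them (adjusted p under 0.05, with a log2 change of 0.5 or more in either direction). It called 0% of 3317 H3K27ac regions and 0.251% of 6764 H3K4me1 regions genome-wide. At an unadjusted p under 0.05 there were 0 of the 4 and 4 of the 12 HOX regions, where 189 of all 3317 H3K27ac and 595 of all 6764 H3K4me1 regions passed it, and DESeq2 called 0 HOX regions. The H3K27ac changes lay between -0.08 and 0.14 on the log2 scale. At chr17:48540301-48560200, which holds the HOXB2 promoter, the libraries had 2462 and 2245 CPM in CTRL and 2590 and 2604 in DOX, a log2 change of 0.14 (SE 0.14, adjusted p = 0.997, edgeR). The corresponding region at HOXC8 changed by -0.08 (SE 0.16) and that at HOXB3 and HOXB4 by -0.08 (SE 0.15). A missed threshold with 2 against 2 libraries does not show equal signal.

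For H3K4me1 the largest HOX change was at chr17:48572501-48576900, beside HOXB4, with 237 and 220 CPM in CTRL and 159 and 159 in DOX, a log2 change of -0.52 (SE 0.19, adjusted p = 0.292, edgeR). The region at HOXB2, chr17:48544801-48554800, went the other way, with 444 and 430 against 579 and 532 CPM, a log2 change of 0.34 (SE 0.13, adjusted p = 0.323, edgeR). In both regions the DOX libraries did not overlap the CTRL libraries, yet neither passed the adjusted test. Of the 12 HOX regions tested for H3K4me1, 9 were lower and 3 higher in DOX. Their median log2 change was -0.296, against -0.0025 over all regions tested. With covered length as offset the medians were -0.164 and -0.0563. Whether the HOX regions differed as a set was not tested. For H2AK119ub, H3K36me3 and H3K9me3 no HOX region met the coverage minimum, and edgeR called 0%, 0.265% and 0% of the regions tested elsewhere.

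Other genes of the same network and family were counted alongside. Of all protein-coding promoters in H661, 58.1% had H3K27ac, 24.3% H2AK119ub, 15.6% a SUZ12 peak and 26.3% a consensus peak. Of 9 HOX cofactors (PBX, MEIS and PKNOX genes, whose proteins bind DNA together with HOX proteins), 6 had H3K27ac in H661, 4 H2AK119ub, 2 SUZ12 peaks (MEIS1 and PKNOX2) and 2 a DPPA2/4 consensus peak (PBX3 and PBX4). In H1299, 4 had H3K27ac in CTRL and 5 in DOX, against 38.3% and 51.3% of all promoters, with 0 counted as gained, against 5.03%. Of 5 CDX and EVX genes, upstream regulators and cluster neighbours, 3 (CDX2, EVX1 and EVX2) had both H2AK119ub and a SUZ12 peak in H661 and 0 had H3K27ac in any group. Among 31 other homeobox genes (the DLX, IRX, LHX, PAX and sine oculis families), 28 had H2AK119ub, 21 SUZ12 peaks, 13 H3K27ac and 14 a consensus peak in H661. The high share of HOX promoters with H2AK119ub was therefore shared with these 31 genes, 90.3% of which carried it against 81.6% of the HOX promoters.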

How the data were processed

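Per the labels and the study's methods, the authors trimmed reads with Trim Galore 0.6.6, aligned them to hg38 with BWA 0.7.13, converted and indexed alignments with SAMtools 1.9, marked duplicates with Picard 2.6.0 and called EPIC2 islands (100 bp bins) in each library, and MACS2 narrow peaks in the DPPA2, DPPA4, KDM2A and SUZ12 libraries, against input. The deposited island files give, per island, the counts of ChIP and of input reads, a log2 fold, a score and a p-value with its adjusted form, and the deposited narrow peak files give a fold ratio over input and −log10 p and q values. Factor libraries were double-crosslinked and histone libraries single-crosslinked. H3K4me3, H3K27me3 and all CUT&RUN libraries are not analysed here.

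Islands had to pass an FDR of 0.05 and, like the narrow peaks, a log2 fold of 1. Windows came from GENCODE 44 canonical transcripts. A consensus peak needed more than 25% of each peak to overlap. Island read counts were summed over merged regions and tested with edgeR 4.0.16 (DESeq2 1.42.0 as alternative) in R 4.3.3, and other steps ran in Python 3.11.15 with pandas 2.3.3, NumPy 2.4.6, SciPy 1.17.1 and matplotlib 3.10.9. A region was called when its adjusted p was under 0.05 and it changed by 0.5 or more (log2) either way. The test was checked on simulated data. The DOX comparison had the replicate number as a block, since the study's methods describe replicates as complete batches. Same-numbered libraries deviated together for H3K27ac (r = 0.263) and less for the other marks (H2AK119ub 0.104, H3K36me3 0.0769, H3K9me3 0.0549 and H3K4me1 0.0391). Only reads inside islands were deposited, so intervals for a promoter without an island cannot be given and its signal is below the caller's limit, not known to be 0.

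The members and lists were chosen with earlier results of these data known. Values per library are printed for the 12 consensus genes of highest mean percentile, for genes called in both libraries of one line and neither of the other for H3K27ac or H2AK119ub (at most 12 per mark), for genes gained or lost with DOX and for regions called by edgeR. Other genes were named after their values were seen.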

Additional observations from a re-analysis of the deposited data

Results flagged for a closer look

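Promoter calls of SUZ12 and KDM2A rested on narrow peaks, and their broad EPIC2 islands touched further promoters. KDM2A islands touched 23 HOX promoters that had no KDM2A narrow peak, 29 in all against 6, where 50.6% of all promoters had an island and 10.5% a narrow peak. SUZ12 islands touched 6 HOX promoters without a SUZ12 narrow peak (HOXA6, HOXA10, HOXB3, HOXB5, HOXC8 and HOXC13), 24 in all against 18, where the shares of all promoters were 23.5% and 15.6%. Both were picked out because these islands, called above input, entered no promoter count, and each rests on 1 library.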

How the results depend on the processing

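Counts at promoters depended on the settings, and the cause was not tested except where fewer regions or stricter islands qualify by construction. Shares of all promoters at these settings are not given, so the counts are not set against them. A window of 500 bp on either side of the TSS gave, in H661, 11 promoters with H3K4me1, 1 with H3K36me3 and 1 with H3K9me3, in CTRL 4 with H2AK119ub, 5 with H3K4me1 and 0 with H3K36me3, and in DOX 5, 6 and 0. Between lines it gave 0 for H3K27ac in CTRL alone, 6 and 2 for H3K4me1 in H661 and CTRL alone, 1 and 0 for H3K36me3 and 1 for H3K9me3 in H661 alone, and with DOX 1 H2AK119ub gain, 2 H3K4me1 gains, 1 H3K4me1 loss and 0 H3K36me3 losses. Any annotated TSS gave 15 (H2AK119ub) and 6 (H3K36me3) in CTRL, 5 (H3K36me3) in DOX and 0 for H3K27ac and H3K4me1 in CTRL alone. Islands over at least 50% of the window gave 11, 19, 2, 1, 0 and 0 in H661 (H3K27ac, H2AK119ub, H3K4me1, H3K36me2, H3K36me3, H3K9me3), 5, 0, 1 and 0 in CTRL and 6, 0, 4 and 0 in DOX (H3K27ac, H2AK119ub, H3K4me1, H3K36me3). Between lines that setting gave 6 and 0 for H3K27ac, 2 for H3K4me1 in H661 alone, 0 and 0 for H3K36me3 and 0 for H3K9me3, and with DOX 0 H2AK119ub losses, 1 H3K4me1 gain and 0 H3K36me3 losses. A log2 fold above 2 gave 12, 13, 0, 2 and 0 in H661 (H2AK119ub, H3K4me1, H3K36me2, H3K36me3, H3K9me3), 4, 4, 3 and 0 in CTRL and 8, 1, 5 and 1 in DOX (H3K27ac, H2AK119ub, H3K4me1, H3K36me3), and between lines 0 for H3K27ac and 2 for H2AK119ub in CTRL alone, 1 and 0 for H3K36me3, 0 for H3K9me3, with 1 H3K4me1 gain and 0 H3K36me3 losses with DOX. Consensus promoters numbered 36 from islands, 4 at over 50% overlap and 12 at a log2 fold above 2. Islands of single DPPA2 and DPPA4 libraries touched from 61.1% to 70.3% of all promoters.

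Cluster length differences between lines at a log2 fold above 2 were 18.5, 3.67, 0.427 and 22.2 points for H2AK119ub (HOXA to HOXD) and 7.42, 16.5 and 8.29 for H3K4me1 (HOXA, HOXC, HOXD), and the DOX difference of H3K36me3 in HOXB was -0.449. With 10 kb added on either side, H3K27ac in HOXC differed by 47.0 points and H3K4me1 by 23.8 in HOXA and 13.5 in HOXD, and the DOX difference of H2AK119ub in HOXD was 1.03 against -0.764.

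With no coverage minimum, edgeR called 27 HOX regions between lines for H3K27ac, 30 for H2AK119ub, 38 for H3K4me1 and 5 for H3K36me3, where 16.9%, 8.92%, 25.7% and 6.19% of all regions were called, and the DOX change at HOXB2 was -0.019 in place of 0.14. With covered length as offset, the DOX change at HOXB2 was -0.13, that of H3K4me1 beside HOXB4 0.068 and the line difference of H3K4me1 at chr12:53987101 0.40. Leaving out single libraries, the H3K36me3 line difference at chr17:48634701 ranged from -0.60 to 0.027 (without H661 replicate 2).

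The replicate block changed no call at a HOX region: without it 0 HOX regions were called for DOX in H3K27ac and in H3K4me1, and with it the line comparison called 2 for H3K27ac and 0 for the other marks, at -1.29 and -1.38. Over all regions it did: DOX H3K4me1 had 17 calls with the block and 0 without, and the line comparison had 671 with it and 627 without for H3K27ac and 113 and 140 for H3K36me3. In the line comparison the same number does not pair cultures of different cell lines, and r ranged from -0.33 (H3K9me3) to 0.127 (H3K27ac).

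Leaving out each library in turn gave 4 to 19 promoters for H661 H3K36me2 and 3 to 4 for H3K9me3, 15 to 16 for CTRL H2AK119ub and 4 to 4 for H3K36me3, and 14 to 22, 8 to 18, 15 to 19 and 4 to 4 for DOX H3K27ac, H2AK119ub, H3K4me1 and H3K36me3. Of all promoters, R1 and R2 had 9.81% and 20.3%, 9.22% and 6.2% in H661 and 14.1% and 26.3%, 11% and 13% in CTRL. In DOX the shares were 59.5% and 52.1%, 18.7% and 22.4%, 49.7% and 53.2%, and 15.2% and 13.5%. Between lines it gave 11 to 19 (H3K27ac) and 2 to 4 (H3K9me3) in H661 alone and 0 to 2 (H2AK119ub) and 1 to 2 (H3K4me1) in CTRL alone, and 0 to 1 called H3K4me1 regions. Gains with DOX ranged over 1 to 8 for H3K27ac, 0 to 3 for H2AK119ub, 0 to 4 for H3K4me1 and 0 to 1 for H3K36me3, and losses over 0 to 1, 2 to 5, 1 to 4 and 1 to 2. Island calls depend on depth, so a promoter without an island in a shallow library is not shown to lack the mark.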

Other observations

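Noncoding RNAs of the clusters were scored at their own starts. Of 15 long noncoding RNAs and host transcripts, 12 had H3K27ac in H661, 11 had H2AK119ub, 10 had a DPPA2/4 consensus peak and 6 had a SUZ12 peak. The shares of all protein-coding promoters were 58.1%, 24.3%, 26.3% and 15.6%. H3K27ac was called at 7 in H1299 CTRL and at 7 in H1299 DOX, against 38.3% and 51.3% of protein-coding promoters.

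The microRNA genes, which target HOX transcripts among others, were scored with 500 bp on either side. MIR10A, beside HOXB4, lay in H3K27ac islands over all 1110 bp of its window in both CTRL libraries and over 0 and 63 bp in the H661 libraries. MIR196A2, in HOXC, was covered over all 1110 bp in both H661 libraries, 0 and 563 bp in CTRL and 447 and 0 bp in DOX. MIR615, inside the HOXC5 region, had 745 and 1096 bp in H661 R1 and R2 and 0 bp in the 4 H1299 H3K27ac libraries.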
